A study of Mus musculus with 3 samples.

Results

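The genes described here are 9 members of the angiotensin and kinin peptide system, the blood-borne peptides that set vessel tone and permeability. They were chosen by name (*Ace*, *Agt*, *Agtr1a*, *Agtr2*, *Mas1*, *Bdkrb1*, *Bdkrb2*, *Enpep* and *Mme*), and each has a row among the 24346 genes of the deposited table. The table holds bulk RNA-seq values of adult lung endothelial cells (ECs) from wild type C57BL/6J mice, in 3 libraries called S38, S44 and S52 that form 1 condition with no treatment and no control. The cells were freshly isolated from lungs of males aged 6 to 8 weeks, labelled in the animal with an antibody to VE-cadherin, dissociated with enzymes and sorted as CD31+ cells negative for CD45 and podoplanin. Whether the libraries came from separate mice is not stated, and a library may pool animals, so an SD measures the spread between libraries, which may be technical. Values are FPKM, fragment numbers divided by gene length and library size, so levels can be compared between genes per length. From the steps of low values, the libraries were estimated at 37600000 fragments (S38), 38600000 (S44) and 34200000 (S52), and other limits on the low values moved these estimates by at most 3.11%.

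In the renin-angiotensin system, renin releases angiotensin I from the liver-derived precursor angiotensinogen. Angiotensin-converting enzyme (ACE), an ectoenzyme of endothelium, trims it to the vasoconstrictor angiotensin II, and the capillary bed of the lung is a classical site of this conversion. In the kallikrein-kinin system, kallikreins release bradykinin from kininogen, and ACE and neprilysin, among other peptidases, degrade it. Bradykinin dilates vessels and raises their permeability through receptors on ECs.

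*Ace* was 1 of the most abundant transcripts of the sorted cells, whereas the angiotensin precursor gene, the angiotensin receptors and the other peptidases of the set were far lower. Of the 9 genes, 6 had a mean of at least 1 FPKM, the level called detected here, against 48.3% of all genes in the table and 54.7% of its protein-coding genes. With every library scaled to total 1000000 the number was 4, since *Bdkrb1* and *Agtr1a* then had means of 0.983 and 0.933. That total is below the deposited total of each library, so every value fell, and the shares of all genes were not recomputed for it. The number stayed at 6 with libraries scaled to the same endothelial median or the same protein-coding sum. Only *Ace* and *Bdkrb2* reached a mean of 10 FPKM, a level reached by 25.7% of all genes. *Agtr2* and *Mas1* were listed at 0 in all 3 libraries, as were 29.5% of all genes and 23.1% of protein-coding genes. The median of the means over the 9 genes was 1.33 FPKM, and it was 0.784 FPKM over all genes and 1.89 FPKM over protein-coding genes.

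**Figure D1:**
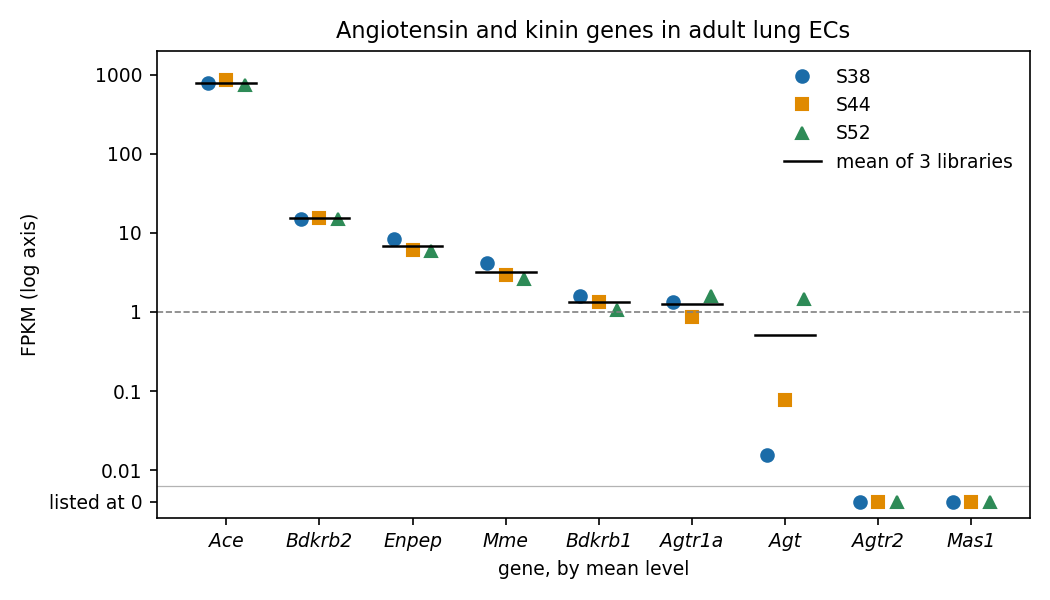
FPKM (log axis) of the 9 genes in S38, S44 and S52, ordered by mean level, with the mean of the 3 libraries as a bar, the 1 FPKM level as a dashed line and values of 0 in a band at the bottom. *Ace* sits near 788 FPKM, *Bdkrb2* near 15.2 FPKM, and the 3 points of *Agt* run from 0.0156 to 1.45 FPKM.

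Upstream sequences are shown for *Ace*, the most abundant member, which has more than 1 annotated start that a single FPKM value cannot tell apart. *Mme* also has more than 1 annotated start, and its windows are not printed. Sequences of *Bdkrb2* and *Agt*, the most abundant receptor gene and the precursor gene, are shown for comparison. They come from RefSeq (GRCm38.p6), which gave windows for 7 of the 9 genes, and each run covers bases -210 to -11 before an annotated start, 5′ to 3′ on the strand of the gene. Capitals mark matches to GGGCGG (the GC box) and TATAAA (the TATA box) on either strand. The somatic start of *Ace* (chr11:105967738-105967937, plus strand) lies upstream of the gene. The internal start (chr11:105974979-105975178, plus strand) lies in intron 12 of the 25-exon transcript, the place of the promoter known for the shorter testis form. *Bdkrb2* (chr12:105562962-105563161, plus strand) is the next most abundant gene. *Agt* (chr8:124569717-124569916, minus strand) is the low-level precursor gene.
Ace somatic start: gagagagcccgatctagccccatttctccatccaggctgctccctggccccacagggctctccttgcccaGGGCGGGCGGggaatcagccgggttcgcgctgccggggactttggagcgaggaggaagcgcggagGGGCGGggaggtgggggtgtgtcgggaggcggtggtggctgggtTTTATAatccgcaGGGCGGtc
Ace internal start: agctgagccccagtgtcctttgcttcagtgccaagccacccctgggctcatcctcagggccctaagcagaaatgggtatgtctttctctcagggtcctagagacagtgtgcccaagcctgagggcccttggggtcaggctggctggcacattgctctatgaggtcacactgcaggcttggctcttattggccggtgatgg
Bdkrb2: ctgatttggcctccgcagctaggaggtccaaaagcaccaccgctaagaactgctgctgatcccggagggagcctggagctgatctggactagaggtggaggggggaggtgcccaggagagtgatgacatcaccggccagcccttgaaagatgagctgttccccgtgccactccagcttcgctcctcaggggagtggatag
Agt: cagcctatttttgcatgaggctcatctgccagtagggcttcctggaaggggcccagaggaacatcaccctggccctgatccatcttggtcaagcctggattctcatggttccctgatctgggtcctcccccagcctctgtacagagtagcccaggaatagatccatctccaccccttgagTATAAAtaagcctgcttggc

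The somatic *Ace* window held 4 GC boxes, 2 of them overlapping, and 1 TATA box, with 15 CpG dinucleotides and 69% G or C. The internal *Ace* window held neither motif and 1 CpG. *Bdkrb2* held neither motif and 6 CpGs, and *Agt* held 1 TATA box and no CpG. Of the windows not printed, those of *Mme* included 1 with 2 GC boxes and 23 CpGs and 1 with 2 GC boxes and 25 CpGs. A further *Mme* window held neither motif and 1 CpG. GC boxes and many CpGs were thus not particular to *Ace*. Among 32851 windows of 200 bases in the same table, 29.9% held a GC box and 10.2% a TATA box, and the median number of CpGs was 5. Further motifs were searched on both strands and matched no window of the 7 genes. The ETS factor core CCGGAA was held by 10.1% of all windows. The GATA factor core AGATAA was held by 7.99%, the E-box CACGTG by 5.09%, and the AP-1 site TGACTCA by 3.67% of them. A match is a match of letters, and binding was not measured.

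*Ace* (GRCm38 chromosome 11, 105967945 to 105989964, plus strand) encodes the enzyme that makes angiotensin II and inactivates bradykinin. S38 gave 783 FPKM, S44 846 FPKM and S52 737 FPKM. This mean of 788 ± 55.0 FPKM (SD, n = 3) ranked 127 among the 24346 genes, above 99.5% of them. The values rest on an estimated 119296 fragments or more per library, so counting error is small beside the spread between libraries. The level was of the order of that of the antibody targets. Within each library the ratio of *Ace* to *Pecam1*, the CD31 gene, was 0.696, 0.696 and 0.633. The ratio to *Cdh5*, the VE-cadherin gene, was 0.856 ± 0.0416 (SD, n = 3), so *Ace* was below both genes in every library. The protein-coding genes closest to *Ace* over the 3 libraries, by the largest difference on the log2(FPKM + 1) scale in any library, were *Ifitm2* (0.083), *Tmem100* (0.12) and *Clic4* (0.12). An antisense gene, *Gm11651*, overlaps 6.01% of the exon bases of *Ace*, and reads were not stranded, but the table lists that gene at 0.533, 0.261 and 0 FPKM. The single row for *Ace* does not separate transcripts from its annotated starts.

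Of the kinin receptor genes, *Bdkrb2* was the next gene after *Ace* in abundance and *Bdkrb1* was far lower. *Bdkrb2* encodes the B2 receptor, the constitutive receptor of bradykinin. S38 gave 15.2 FPKM, S44 15.4 FPKM and S52 15.1 FPKM, a mean of 15.2 ± 0.165 FPKM (SD, n = 3). Its libraries lay within 0.029 of each other on the log2(FPKM + 1) scale, and 0.348% of the 11770 detected genes had a smaller range. This closeness depended on the scale. The range was 0.417 with every library scaled to total 1000000 and 0.116 with libraries scaled to the same endothelial median. With libraries scaled to the same protein-coding sum it was 0.034, close to the deposited value. *Bdkrb1* encodes the B1 receptor, which binds kinins lacking their last arginine and is known for its induction in inflamed tissue. S38, S44 and S52 gave 1.58, 1.35 and 1.05 FPKM, a mean of 1.33 ± 0.268 FPKM (SD, n = 3), from an estimated 70.6, 61.9 and 41.8 fragments. All 3 values lay just above the detection level. The mean fell to 0.983 FPKM with every library scaled to total 1000000, which is below the deposited total of each library. The mean was 1.33 FPKM with libraries scaled to the same endothelial median, and also with the same protein-coding sum. Within libraries *Bdkrb2* was 9.59, 11.4 and 14.4 times as abundant as *Bdkrb1*. The genes are neighbours on the plus strand of chromosome 12, *Bdkrb2* from 105563226 to 105595237 and *Bdkrb1* from 105603085 to 105605428, with 7847 bases and no annotated gene between them. No window of 51 bases, the read length, in either transcript occurs in a transcript of another gene.

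*Enpep* and *Mme*, the other cell-surface peptidases of the set, were detected in every library at levels far below *Ace*. *Enpep* (chromosome 3, 129269175 to 129332720, minus strand) encodes aminopeptidase A, which removes the first residue of angiotensin II. S38 gave 8.25 FPKM, S44 6.06 FPKM and S52 5.85 FPKM, a mean of 6.72 ± 1.33 FPKM (SD, n = 3). *Mme* (chromosome 3, 63241537 to 63386030, plus strand) encodes neprilysin, which degrades bradykinin and cuts angiotensin I to a vasodilator heptapeptide. S38 gave 4.11 FPKM, S44 2.93 FPKM and S52 2.59 FPKM, a mean of 3.21 ± 0.799 FPKM (SD, n = 3). In the deposited values both genes were highest in S38 and lowest in S52, and *Enpep* was the higher in each library, by 2.11 ± 0.133 times (SD, n = 3). *Ace* exceeded *Enpep* by 120 ± 22.9 times and *Mme* by 255 ± 55.6 times (SD, n = 3 for each). Of the 51-base windows of the longest *Mme* transcript, 0.739% occur in transcripts of other genes, and none do for *Enpep*.

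The angiotensin receptor genes were at or below the detection level. *Agtr1a* (chromosome 13, 30336441 to 30382867, plus strand) encodes the type 1A receptor, through which angiotensin II constricts vessels. S38 gave 1.32 FPKM, S44 0.867 FPKM and S52 1.58 FPKM, a mean of 1.26 ± 0.359 FPKM (SD, n = 3). S44 thus fell below 1 FPKM. The mean was 0.933 FPKM with every library scaled to total 1000000, below the deposited total of each. *Agtr1a* had a mean of 1.27 FPKM with the same endothelial median and 1.26 FPKM with the same protein-coding sum. Its near copy *Agtr1b* was listed at 0, 0.0258 and 0 FPKM, and 1.44% of the 51-base windows of the *Agtr1a* transcript also occur in *Agtr1b*. *Agtr2* (chromosome X, 21484544 to 21489164, plus strand) encodes the type 2 receptor, and *Mas1* (chromosome 17, 12841079 to 12868143, minus strand) a receptor for the heptapeptide. Both were listed at 0 in every library, where a count of 0 allows up to 0.0282 FPKM for *Agtr2* and 0.0393 FPKM for *Mas1* (3 fragments in S52, counting error only). An exact 0 can also be a failed estimate.

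*Agt* (chromosome 8, 124556534 to 124569706, minus strand), the angiotensinogen gene, was the member that differed most between libraries. S38 gave 0.0156 FPKM, S44 0.0762 FPKM and S52 1.45 FPKM, which stand for an estimated 1.0, 5.1 and 85.4 fragments. S52 stood apart from the other libraries, and the S38 value lay under the limit that a count of 0 allows (0.0458 FPKM). The mean of 0.514 ± 0.812 FPKM (SD, n = 3) was 0.0459 FPKM without S52. On the log2(FPKM + 1) scale S52 was higher than S38 by 1.27 and than S44 by 1.19. Such a range of over 1 was found in 7.53% of all 24346 genes.

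In the order of mean levels (*Ace*, *Bdkrb2*, *Enpep*, *Mme*, *Bdkrb1*, *Agtr1a*, *Agt*, then *Agtr2* and *Mas1* at 0), neighbours were compared within libraries. In 5 of the 6 pairs with both genes above 0, the higher gene was higher in every library. The order was set by the means of the same libraries, so this is a description of it. With 3 libraries the exact permutation test (sign flips of the within-library log2 ratio, two-sided) cannot go below p = 0.25 and could not pass a threshold of 0.05. The steps from *Ace* down to *Bdkrb1* were clear of overlap. The lowest value of *Bdkrb2* (15.1 FPKM) was above the highest of *Enpep* (8.25 FPKM), and the lowest of *Mme* (2.59 FPKM) was above the highest of *Bdkrb1* (1.58 FPKM). *Bdkrb1* and *Agtr1a* could not be ordered: *Bdkrb1* was higher in 2 of 3 libraries, and the mean difference was 0.050 ± 0.34 on the log2(FPKM + 1) scale (SD, n = 3). *Agtr1a* was above *Agt* in every library, but their ranges overlapped because of the S52 value of *Agt*.

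No detected member ranged over more than 2-fold between libraries (0 of 6 with a difference over 1 on the log2(FPKM + 1) scale), against 12.7% of all detected genes. The median range over the 6 genes was 0.38, and it was 0.43 over the 11770 detected genes. *Mme* had the widest range (0.51), followed by *Agtr1a* (0.46), *Enpep* (0.43), *Bdkrb1* (0.34), *Ace* (0.20) and *Bdkrb2* (0.029). With every library scaled to total 1000000 the ranges were 0.77 (*Enpep*), 0.69 (*Mme*), 0.48 (*Agtr1a*), 0.45 (*Bdkrb1*), 0.42 (*Bdkrb2*) and 0.39 (*Ace*).

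**Figure D2:**
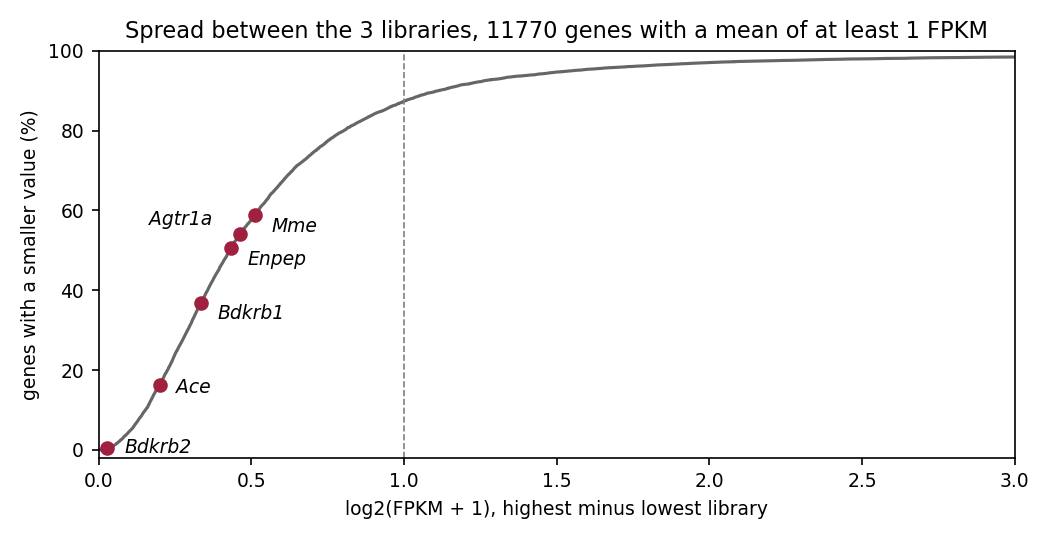
Share of the 11770 detected genes (vertical axis, percent) with a smaller range between the 3 libraries than the value on the horizontal axis, in log2(FPKM + 1), with the 6 detected members as points and a 2-fold range as a dashed line. *Bdkrb2* and *Ace* lie at 0.348% and 16.3%, and the other members between 36.9% and 58.8%. Values are on the deposited scale.

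The detected genes did not all follow 1 library order. S52 was lowest for 5 of the 6 (all but *Agtr1a*), against 46.3% of all detected genes. *Enpep*, *Mme* and *Bdkrb1* fell in the order S38, S44, S52, a pattern of 26.6% of detected genes, and *Agtr1a* was highest in S52 and lowest in S44, a pattern of 17.8%. FPKM totals over all genes were 1153890 (S38), 1603600 (S44) and 1419350 (S52). These orders therefore belong to the deposited scale and can change when libraries are scaled to the same total. Marker lists of other cells moved between the libraries too. The sum of 10 endothelial markers varied less, with 6369 FPKM (S38), 7058 FPKM (S44) and 6291 FPKM (S52). Single genes of that list varied more, as with *Erg* at 59.2, 43.1 and 84.8 FPKM. Lists of capillary EC types differed in direction. The 4 aerocyte markers summed to 1257, 1349 and 771 FPKM, and the 4 general capillary markers to 1599, 1792 and 2044 FPKM. *Ptprc*, the gene of the sort marker CD45, was at 4.30, 2.06 and 0.434 FPKM, and *Pdpn*, that of podoplanin, at 2.39, 1.84 and 3.09 FPKM. The sum of 5 alveolar type 2 markers was 3778, 3164 and 755 FPKM, with *Sftpc* at 658 FPKM even in S52. The sum of 4 platelet markers was 1692 FPKM in S38 and 1345 FPKM in S44, and S52 held 2.24% of the S38 level. Fibroblast markers (6 genes) summed to 85.1, 66.9 and 50.2 FPKM, but only 3 of the 6 were lowest in S52, and 1 was highest there. Neutrophils are known to carry neprilysin, and 3 neutrophil markers summed to 34.1, 47.0 and 2.83 FPKM, with *Mpo* at 0 throughout.

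The 6 pericyte markers summed to 37.1 FPKM (S38), 24.6 FPKM (S44) and 61.1 FPKM (S52). The library order of *Agtr1a* on the deposited scale was held by 4 of them, against 17.8% of detected genes, while *Kcnj8* and *Abcc9* were highest in S38. It was also held by 2 of 4 alveolar type 1 markers and 2 of 4 venous endothelial markers. This order of *Agtr1a* changed with every library scaled to total 1000000. *Agtr1a* was then highest in S38, whereas the pericyte sum stayed highest in S52. *Pdgfrb*, which the paper used to mark perivascular cells, was at 6.47, 4.80 and 10.1 FPKM. The 4 smooth muscle markers summed to 206, 124 and 183 FPKM, also lowest in S44. The ratio of *Agtr1a* to *Pdgfrb* was 0.205, 0.181 and 0.157, and that of *Enpep* to *Pdgfrb* was 1.28, 1.26 and 0.582. *Agt*, also highest in S52, was lowest in S38, which the pericyte sum was not. Of 4 adipocyte markers, *Adipoq* was at 0.147, 0 and 0.793 FPKM and the other 3 were listed at 0 in S52. The part of these other cells in the levels of *Agt*, *Agtr1a*, *Enpep*, *Mme* and *Bdkrb1* was not tested. In bulk RNA, fewer cells of a type and less RNA per cell cannot be told apart.

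**Figure D3:**
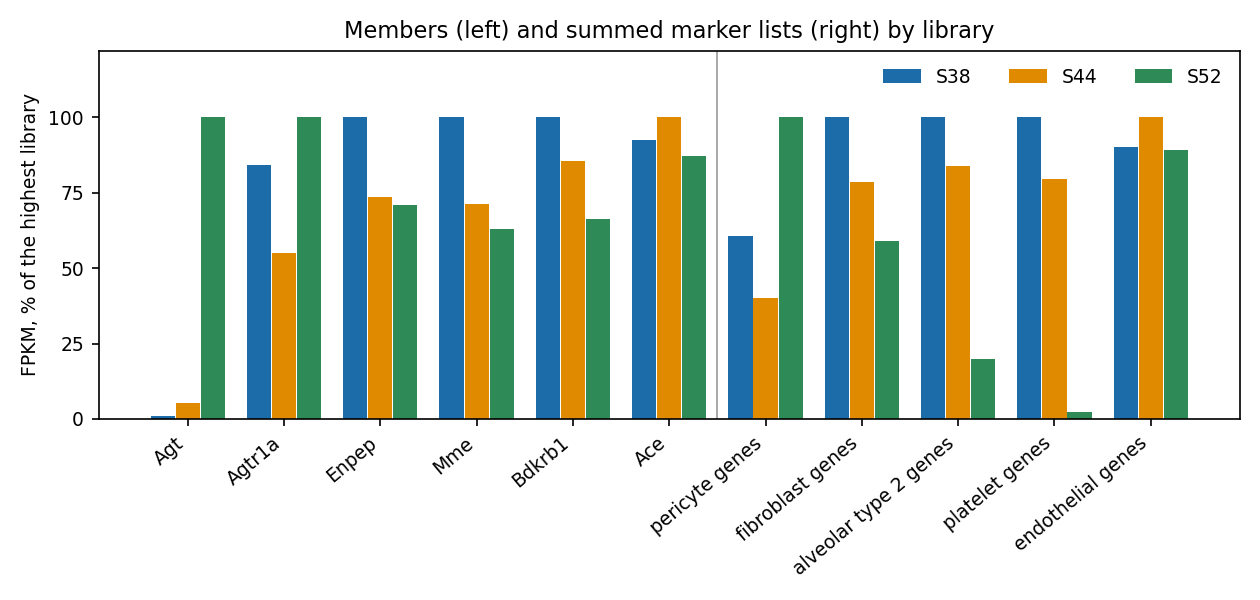
FPKM of 6 members (left) and summed FPKM of 5 marker lists (right) in each library, as a percent of the highest library. *Agt* reached 1.08% and 5.25% of its S52 level in S38 and S44, *Agtr1a* and the pericyte genes were highest in S52 and lowest in S44, and *Ace* was at 87.1% or more, as were the endothelial genes. Values are on the deposited scale, and the order of *Agtr1a* changed when libraries were scaled to the same total.

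Around these 9 genes, 38 others of the pathways were listed by role, and 21 of them were detected (55.3%), a share close to the 48.3% of all genes and the 54.7% of protein-coding genes. Of these 21 genes, 2 (*Anpep* and *Xpnpep2*) ranged over more than 2-fold between libraries, against 12.7% of all detected genes. *Xpnpep2* passed narrowly, with a range of 1.05 on the log2(FPKM + 1) scale. The precursors and the proteases that release the peptides were at or near 0. *Ren1* (renin), *Ctsg* (cathepsin G), *Kng1* and *Kng2* (the kininogens) and *F12* (coagulation factor XII) were listed at 0 in all 3 libraries. *Klk1* (tissue kallikrein) was at 0.0363 ± 0.0366 FPKM, *Klkb1* (plasma prekallikrein) at 0.0494 ± 0.0856 FPKM and *Cma1* (mast cell chymase) at 0.0944 ± 0.0818 FPKM (SD, n = 3 for each), each at 0 in S52.

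Among genes of angiotensin formation and breakdown, 7 of 11 were detected, and all of these encode peptidases. *Cltrn* (collectrin, listed under the older symbol *Tmem27*) was at 0.119, 0 and 0 FPKM. *Prcp*, a prolylcarboxypeptidase that removes the last residue of angiotensin II, was the highest at 30.7, 38.5 and 53.3 FPKM and was highest in S52, unlike the members other than *Agtr1a* and *Agt*. *Rnpep* (aminopeptidase B) was at 22.3 ± 2.51 FPKM, *Prep* (prolyl endopeptidase) at 19.7 ± 2.21 FPKM and *Thop1* (thimet oligopeptidase) at 8.52 ± 0.397 FPKM (SD, n = 3 for each). *Lnpep*, an aminopeptidase that binds angiotensin IV, was at 7.38 ± 0.987 FPKM, and *Nln* (neurolysin) at 3.87 ± 0.619 FPKM (SD, n = 3). *Anpep* (aminopeptidase N) varied most, at 4.39, 1.98 and 0.270 FPKM.

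On the kinin side, 5 of 12 genes were detected. The membrane-bound aminopeptidase P gene *Xpnpep2*, whose product degrades bradykinin, gave 20.9 FPKM (S38), 22.6 FPKM (S44) and 10.5 FPKM (S52), so S52 stood below the others. Its cytosolic relative *Xpnpep1* was at 38.7 ± 8.18 FPKM (SD, n = 3). *Cpm*, a membrane carboxypeptidase that turns bradykinin into a B1 receptor ligand, was at 7.56 ± 0.964 FPKM, and the related *Cpd* at 46.7 ± 6.20 FPKM (SD, n = 3). *Cpn1* and *Cpn2*, the subunits of the plasma carboxypeptidase N, were below 1 FPKM in every library, and *Cpn1* was, like *Agt*, highest in S52 (0.225, 0.0314 and 0.936 FPKM). *Serping1*, the inhibitor of plasma kallikrein and C1, was at 77.7, 80.0 and 43.6 FPKM.

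Of 9 further genes of angiotensin receptors and their partners, the 7 detected were all partners, and the receptor genes *Agtr1b* and *Mrgprd* were not detected. *Agtrap*, whose product binds the type 1 receptor and promotes its internalization, was at 28.9 ± 2.03 FPKM (SD, n = 3), or 24.6 ± 7.91 times *Agtr1a* within libraries. *Atp6ap2*, the prorenin receptor and an accessory subunit of the vacuolar proton pump, was at 47.2 ± 5.54 FPKM (SD, n = 3). The G protein genes *Gna11* and *Gnaq* were at 52.2 ± 4.37 and 38.9 ± 1.69 FPKM, and the arrestin genes *Arrb1* and *Arrb2* at 66.0 ± 13.2 and 23.6 ± 4.80 FPKM (SD, n = 3 for each). *Arap1*, a GTPase-activating protein gene, was at 13.9 ± 1.41 FPKM (SD, n = 3). Many other receptors use these partners. *Mrgprd*, a further receptor for angiotensin peptides, was listed at 0 throughout.

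Of the neprilysin family other than *Mme*, 2 of 6 genes were detected. *Ece1*, the endothelin-converting enzyme, which also cuts bradykinin, was at 225 ± 32.8 FPKM (SD, n = 3). It was 71.9 ± 12.6 times as abundant as *Mme*, and *Ace* was 3.53 ± 0.356 times as abundant as *Ece1* (SD, n = 3 for each). *Ece2* was at 4.76 ± 0.914 FPKM (SD, n = 3), *Phex* at 0.154 ± 0.0396 FPKM (SD, n = 3), and *Mmel1*, *Ecel1* and *Kel* were listed at 0.

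**Figure D4:**
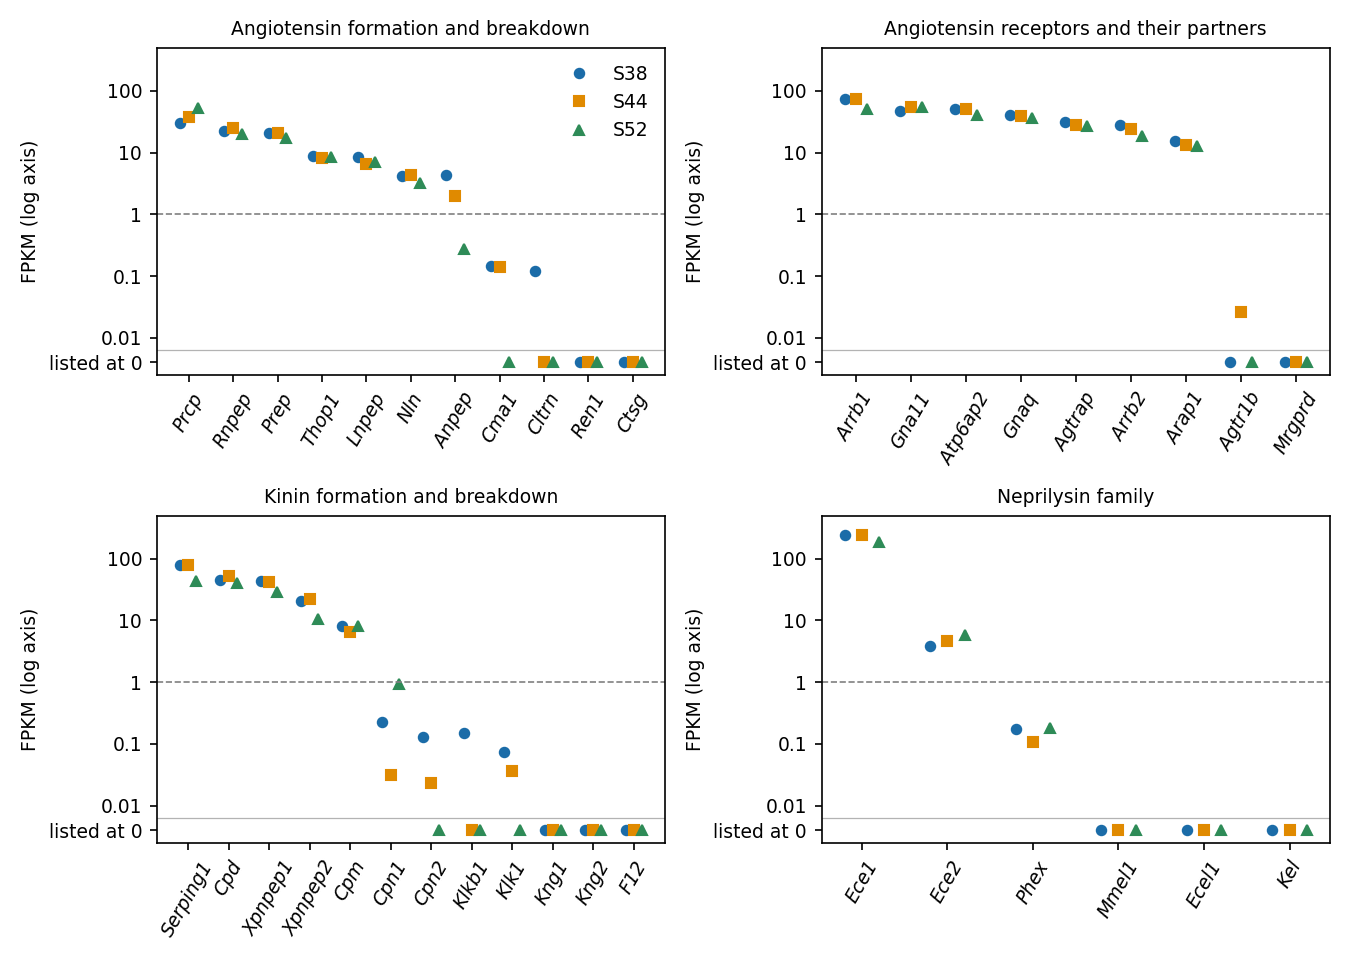
FPKM (log axis) of the 38 further pathway genes in S38, S44 and S52, in 4 lists by role and ordered by mean, with the 1 FPKM level dashed and values of 0 in a band at the bottom. Detected genes number 7 of 11, 7 of 9, 5 of 12 and 2 of 6 in the lists, and *Ece1* is the highest at 225 FPKM.

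For the other detected members, the genes with the closest levels over the 3 libraries were found by the same measure as for *Ace*. They were *Ddx54*, *Socs5* and *Golga2* for *Bdkrb2* (0.026 to 0.040), *Extl2*, *Erlin1* and *Pi4k2b* for *Enpep* (0.050 to 0.074) and *Afap1*, *Mtr* and *Zbtb39* for *Mme* (0.027 to 0.078). They were *Nova1*, *Zbed4* and *Hps6* for *Bdkrb1* (0.031 to 0.054) and *Neo1*, *Kctd21* and *Crocc* for *Agtr1a* (0.013 to 0.097). With 3 libraries of 1 condition, this is closeness in level.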

How the data were processed

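Sorted adult lung ECs were profiled by poly-A selected, non-stranded paired-end RNA-seq of 51 bp. The deposited values are FPKM for each symbol, made by the authors on mm10. The submitters' processing notes name bcl2fastq 2.17, FastQC 0.11.5, Trimmomatic 0.36, TopHat2 2.1.0 and Cufflinks 2.2.1 without roles, whereas the methods of the paper describe STAR, HTSeq and limma for its counts. The annotation behind the FPKM values is not given in the sources used here, and 23310 of 24346 symbols matched GENCODE M21 (GRCm38). All 3 per-sample columns were used as deposited.

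Detection meant a mean of 1 FPKM or more. Differences used log2(FPKM + 1), which understates changes of low genes. No count model was fitted, since FPKM are not counts, and no condition could be compared. Depth was estimated from 7077 genes with 1 basic transcript of 800 to 4000 bp by searching for the number of fragments that makes low values whole, after subtracting 150 or 170 bp from the length. At the depths used, 79.0%, 77.1% and 77.1% of the low values (under about 6 fragments) lay within 0.15 of a whole number in S38, S44 and S52. On simulated counts for these 7077 genes the largest error over 3 depths was 0.111%. The simulated counts were whole numbers with known lengths, so this error does not cover a different annotation or fractional values in the deposited data. Estimated fragments use the longest basic transcript, and the limit for a count of 0 is 3 fragments, for counting error alone. Scripts used Python 3.11.15, pandas 2.3.3 and numpy 2.4.6.

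The members, pathway lists and marker lists were chosen with earlier results of these data known. 1 gene of a pathway list is not reported here and was left out of the list and its counts. Named genes were the members, all other pathway genes, the antibody targets, the first gene of each marker list and, for each detected member, the 3 protein-coding genes closest in level. *Mpo*, *Gm11651* and the windows printed were added after values were seen. Of the rule's antibody targets and first markers, those that no result turns on are not printed. The alternatives were leaving out each library, 3 rescalings, other detection levels, other pseudocounts, no minimum level, and the median in place of the mean.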

Additional observations from a re-analysis of the deposited data

How the results depend on the processing

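No paired analysis was possible because the 3 libraries form 1 group, so no groups share replicate numbers, and the library served as the pair only in comparing genes with each other. Across the alternatives, 39 of 42 recomputed summary values stayed within 1.5 times the reported count or, for the median level, within 1 SD between libraries of *Bdkrb1*, the middle gene. With every library scaled to total 1000000, the median level over the 9 genes was 0.983 FPKM and the number of detected members was 4. That total is below the deposited total of each library, so every value fell while the detection level stayed at 1 FPKM. The other rescalings kept 6 detected members. With detection at 10 FPKM the number was 2, with detection at 0.1 FPKM it was 7 (*Agt* added), and with 1 FPKM required in every library it was 5. With no minimum level, 1 member (*Agt*) had a range over 2-fold. Leaving out a library gave median levels from 1.22 to 1.47 FPKM and kept 6 detected members each time. The difference between *Bdkrb1* and *Agtr1a* on the log2(FPKM + 1) scale turned to -0.00029 without S38 and -0.090 without S44, and was 0.24 without S52. The range of *Agt* was 0.084 without S52, and 3.75 or 5.83 with pseudocounts of 0.1 or 0.01. The number of detected pathway genes, 21, ran from 15 at 10 FPKM to 23 at 0.1 FPKM. Depth limits *Agt* in S38 and S44, *Bdkrb1* and the genes listed at 0.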
